A study of Mus musculus with 6 samples.

Results

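The 7 complement genes C1s, C1qa, C1qb, C1qc, C3, C4b and Serping1 were followed in mouse molars with and without loss of the BMP receptor gene Bmpr1a. They were found by their symbols in the authors' deposited table, where all 7 are listed among 25899 genes. C1s was chosen by its measured level, which was lower in mutants, so its difference between genotypes is given as a description with no test. The other 6 were added as components of the same system. With a minimum mean level of 1 RPM (reads per 1000000) over the libraries, 6 of the 7 could be tested and C3 could not. The levels of all genes in a library sum to 66.7% to 68.6% of 1000000, so RPM is not scaled to the reads on genes.

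Complement is a cascade of secreted proteins that marks and lyses targets. In the classical pathway the recognition molecule C1q, built from the products of C1qa, C1qb and C1qc, carries the proteases C1r and C1s. C1r activates C1s, which cleaves C4 and C2 and so leads to the cleavage of C3, and the C1 inhibitor encoded by Serping1 shuts both proteases down. Outside the liver, C1q is made mainly by macrophages, while fibroblasts and other mesenchymal cells make C1r, C1s and the C1 inhibitor.

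The tissue was dental mesenchyme from the apical side of first lower molars, taken at postnatal day 7.5. The 3 mutants were Gli1-CreER;Bmpr1a fl/fl and the 3 littermate controls were Bmpr1a fl/fl with no driver, all on a mixed C57Bl6/129S6/SvEvTac background. All 6 libraries thus carry floxed Bmpr1a alleles, and deletion is limited to cells that express Gli1, and their descendants, after tamoxifen. The labels give no tamoxifen schedule and do not say whether animals were pooled, so p-values measure the spread between these libraries. Replicates 1 and 2 of each genotype came from litter 1, and replicate 3 of each from litter 2. BMP signalling in tooth morphogenesis was the subject of the study.

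The libraries held 15916045 to 20609420 reads on genes. On the deposited scale of each library, 3 reads, the smallest level treated as detectable, correspond to 0.0987 to 0.126 RPM. These limits cover counting error only. Bmpr1a ranged from 121 to 150 RPM over the controls and from 108 to 120 RPM over the mutants, without overlap. Gli1 was at 30.4 to 63.7 and 19.8 to 28.7 RPM. All 10 dental mesenchyme markers were present, with a summed level of 30879 to 41547 RPM in controls and 16794 to 49666 RPM in mutants. All 10 enamel epithelium markers were present too, although the labelled tissue is mesenchyme: their sum was 2223 to 39213 RPM in controls and 5231 to 49434 RPM in mutants, highest in mutant 1, control 3 and mutant 3. Across the 14444 genes tested with limma, with genotype alone in the model, 0 had a Benjamini-Hochberg adjusted p under 0.05 between genotypes. An unadjusted p under 0.05 was found for 152 (1.05%). Under voom the same counts were 0 and 148, and with litter as a block they were 0 and 292 (2.02%).

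C1s encodes the protease that cleaves C4 and C2. Its gene, named C1s1 in current annotation, lies on chromosome 6, at chr6:124530345-124542359 on the minus strand of GRCm38. The stretch upstream of its outermost annotated start, chr6:124542393-124542609 in the RefSeq promoter table of GRCm38.p6, is shown because C1s is the gene that led to this group, and no base is in capitals because it holds none of the 4 motifs named with the C1q promoters.
C1s: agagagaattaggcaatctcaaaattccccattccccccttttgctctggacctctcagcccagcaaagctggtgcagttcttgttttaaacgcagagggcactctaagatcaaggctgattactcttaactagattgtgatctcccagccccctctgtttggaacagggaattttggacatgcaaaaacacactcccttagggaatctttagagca

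C1s was at 53.6, 58.0 and 55.7 RPM in controls 1 to 3, and at 30.8, 38.2 and 41.8 RPM in mutants 1 to 3. The 3 controls lay within 1.08-fold of each other, every mutant lay below every control, and mutant 1 was lowest. Group means were 55.8 ± 2.19 and 36.9 ± 5.59 RPM (SD, n = 3 per group here and throughout), so the mutant mean was 33.8% lower. The difference of mutants from controls, in log2(RPM + 1) as for all log2 changes given here, was -0.59 (SE 0.15). It was -0.68 within litter 1 and -0.41 within litter 2, which has 1 library per genotype. These are the values by which C1s was chosen. Each library held between 867 and 1657 C1s reads. Fewer cells that make C1s and less C1s RNA per cell cannot be told apart in bulk tissue. Of the markers of dental mesenchyme, 9 of 10 had a change below 0 in mutants (median -0.24), as did 5 of 5 odontoblast markers (median -0.71), and 7 of 7 osteoblast markers (median -0.45), while 9 of 10 enamel epithelium markers were above 0 (median 1.11). An unadjusted p under 0.05 (limma) was found for 2 of the osteoblast markers and for 0 genes of the other 3 lists, against 1.05% of all genes, and 54.4% of all genes had a change below 0. With the enamel epithelium markers as a covariate, a fit chosen after the data were seen, the C1s change was -0.55. The part of these cell types in the lower C1s was not tested.

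An antisense gene lies across C1s. Gm16567 runs on the plus strand at chr6:124530911-124542310, and all 576 bases of its 3 exons lie inside C1s exons. It was at 11.4, 12.1 and 12.5 RPM in controls and at 7.07, 7.98 and 8.63 RPM in mutants, between 20.7% and 23.0% of the C1s level in every library. Whether reads were counted by strand is not given in the sources used here, so reads of the 2 genes cannot be told apart. Their summed level was 65.0 to 70.1 RPM in controls and 37.9 to 50.4 RPM in mutants. C1s makes up most of this sum and was chosen for its lower mutants, so the order of the groups in the sum is no separate result.

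C1ra, which encodes the C1r protease that activates C1s, is not one of the 7 genes but is the enzyme's partner and lies near it, at chr6:124512405-124523443. It was at 27.4, 33.4 and 30.6 RPM in controls and at 17.8, 23.9 and 22.0 RPM in mutants. As for C1s, every mutant lay below every control and mutant 1 was lowest. The means were 30.5 ± 3.01 and 21.2 ± 3.14 RPM, which is a log2 change of -0.51 (SE 0.16), with -0.53 and -0.46 within litters 1 and 2. The unadjusted p was 0.0156 and the adjusted p 1.00 (limma, Benjamini-Hochberg), so the difference did not pass. Without control 2, the highest library, the change was -0.44 and the unadjusted p 0.064. The ratio of C1s to C1ra was 1.95, 1.73 and 1.82 in controls and 1.73, 1.60 and 1.90 in mutants, with overlap and, because C1s was chosen by its own difference, with no test. That ratio thus spread over 1.22-fold, while each gene alone spread over 1.88-fold.

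**Figure D1:**
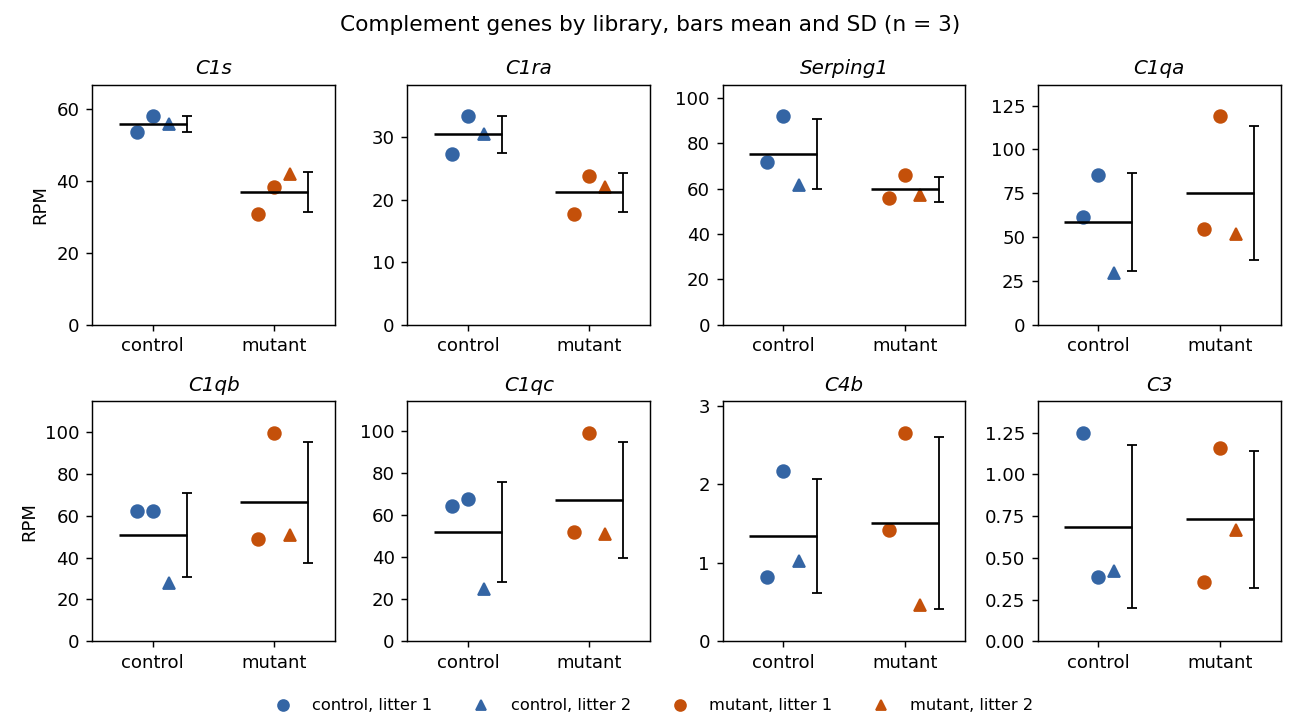
Level in RPM (linear axes from 0) of the 7 genes and C1ra in each library, with circles for litter 1, triangles for litter 2, and bars for the mean and SD of 3 libraries. C1s and C1ra show mutants wholly below controls, while the C1q genes, Serping1, C4b and C3 overlap.

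Serping1 encodes the C1 inhibitor, which inactivates C1r and C1s, and lies at chr2:84765387-84775444. It was at 71.6, 91.9 and 61.7 RPM in controls and at 55.9, 66.0 and 57.3 RPM in mutants. Mutant 2 lay above control 3, so the groups overlap. Means were 75.1 ± 15.4 and 59.7 ± 5.50 RPM, which is -0.31 in log2 (SE 0.17, unadjusted p 0.118, adjusted p 1.00 by limma with Benjamini-Hochberg). Litter 1 alone gave -0.41 and litter 2 alone -0.10. Leaving out control 3, the lowest control, brought the unadjusted p under 0.05 with a change of -0.44, and leaving out control 2, the highest, gave -0.16. The ratio of C1s to its inhibitor was 0.630 to 0.904 in controls and 0.551 to 0.729 in mutants, with overlap, and is likewise given with no test.

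C1qa, C1qb and C1qc encode the 3 chains of C1q and lie side by side on the minus strand of chromosome 4, C1qb at chr4:136880129-136886187, C1qc at chr4:136889804-136893065 and C1qa at chr4:136895917-136898803. Of the 7 genes, 4 had a window in the RefSeq promoter table: C1s, C1qb, C1qc and C3. The C1qb and C1qc stretches before the outermost annotated start (chr4:136886201-136886450 and chr4:136893066-136893164, GRCm38.p6) are shown because the levels of these 2 genes ran together over the libraries. Capitals mark the GAGGAA core bound by PU.1, a transcription factor of myeloid cells, read on either strand.
C1qb: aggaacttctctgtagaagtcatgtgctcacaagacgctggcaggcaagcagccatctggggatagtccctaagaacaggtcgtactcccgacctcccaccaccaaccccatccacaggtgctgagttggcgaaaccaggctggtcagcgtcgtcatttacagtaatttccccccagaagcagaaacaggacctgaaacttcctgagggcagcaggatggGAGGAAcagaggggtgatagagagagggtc
C1qc: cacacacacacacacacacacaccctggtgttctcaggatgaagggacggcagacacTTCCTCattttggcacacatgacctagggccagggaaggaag
The 4 motifs searched on both strands of the 300-base windows were GAGGAA, found in 28.3% of all 32851 windows, TTCNNNGAA (the STAT element), in 8.30%, the core of the interferon-stimulated response element, in 3.44%, and the TATA box TATAAA, in 13.6%. C1qb and C1qc each held GAGGAA once and none of the other 3. A match describes the letters and is not evidence of binding.

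The C1q genes did not separate the genotypes. C1qa was at 61.6, 85.2 and 29.4 RPM in controls and at 54.5, 119 and 51.5 RPM in mutants. C1qb was at 62.3, 62.1 and 27.8 RPM in controls and at 48.9, 99.6 and 50.7 RPM in mutants. C1qc was at 64.1, 67.6 and 24.7 RPM in controls and at 51.8, 99.1 and 50.9 RPM in mutants. All 3 were lowest in control 3 and highest in mutant 2, and the groups overlapped. The log2 changes were 0.36 (SE 0.45) for C1qa, 0.39 (SE 0.39) for C1qb and 0.42 (SE 0.43) for C1qc. Their unadjusted p-values were 0.447, 0.350 and 0.361, with adjusted p-values of 1.00 (limma, Benjamini-Hochberg). The changes rest on single libraries: without control 3 they were -0.06, 0.01 and -0.04, and without mutant 2 they were -0.02, 0.06 and 0.11. With the enamel epithelium markers as a covariate, a fit chosen after the data were seen, they were 0.73, 0.70 and 0.76, with unadjusted p-values of 0.00671, 0.00694 and 0.00781 and adjusted p-values of 1.00 (limma, Benjamini-Hochberg).

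The 3 chains kept close to one another. The C1qc to C1qa ratio lay between 0.793 and 1.04 and the C1qb to C1qa ratio between 0.730 and 1.01 over the 6 libraries, while the level of C1qa itself spread over 4.05-fold. The mean ratio of C1qb to C1qa was 0.895 ± 0.147 in controls and 0.905 ± 0.0749 in mutants (two-sided exact permutation p = 1.00, where 3 against 3 libraries cannot go below 0.1).

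C1q ran with the macrophage markers of each library. All 13 markers in the table were detected, 13 of 13 had a genotype change above 0 (median 0.32) and 0 had an unadjusted p under 0.05 (limma), where 54.4% of all genes were below 0 and 1.05% had such a p. Their summed level was 591, 645 and 286 RPM in controls and 471, 850 and 445 RPM in mutants. Of the 13, 12 were lowest in control 3 and 11 were highest in mutant 2, the libraries at the ends of the C1q range. The summed C1q level was 188, 215 and 82.0 RPM in controls and 155, 318 and 153 RPM in mutants, which is 28.6% to 37.4% of the marker sum. As that share, C1q was 31.3% ± 2.40 in controls and 34.9% ± 2.29 in mutants, with overlap (exact permutation p = 0.2). Against Csf1r, the receptor for the macrophage growth factor CSF1, the C1q sum stood at 1.51, 1.36 and 1.44 in controls and 1.65, 1.71 and 1.73 in mutants, without overlap (exact permutation p = 0.1, the smallest possible). Csf1r was the only marker of the 13 for which this ratio did not overlap; for the other 12 it did. With the mean marker level as a covariate, a fit chosen after the data were seen, the genotype changes were 0.05, 0.12 and 0.12 for C1qa, C1qb and C1qc.

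**Figure D2:**
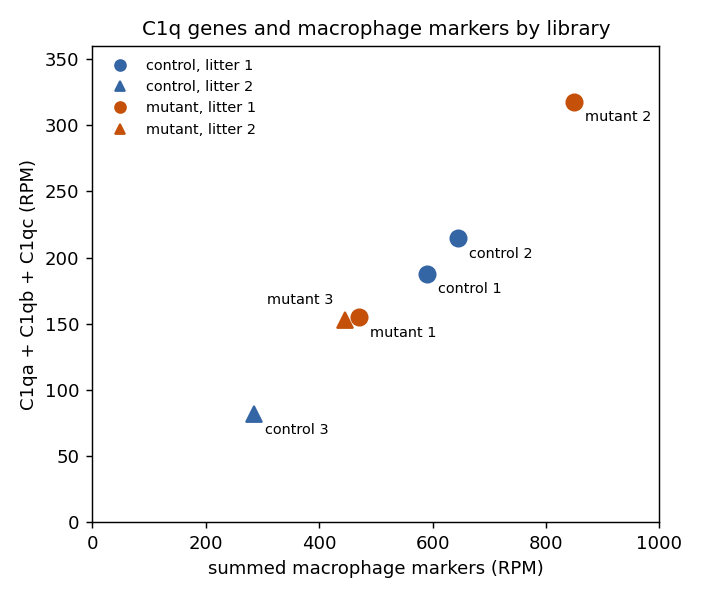
Summed level of C1qa, C1qb and C1qc against the summed level of 13 macrophage markers, both in RPM on linear axes from 0, with 1 point per library. Control 3 lies lowest on both axes (286 and 82.0 RPM) and mutant 2 highest (850 and 318 RPM), with both genotypes along the same course.

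C4b and C3, the substrates further down the cascade, had few reads. C4b, which encodes the C4 cleaved by C1s, lies at chr17:34728380-34743882 and had 25, 62 and 29 reads in controls and 40, 80 and 11 reads in mutants. That is 0.823, 2.17 and 1.02 RPM against 1.42, 2.66 and 0.461 RPM, with full overlap. Its log2 change was 0.05 (SE 0.38, unadjusted p 0.901, adjusted p 1.00 by limma with Benjamini-Hochberg), and it ran from -0.27 to 0.39 as each library was left out. The near-identical copy C4a had 2 to 19 reads per library, and reads may be split between the pair, so the single values are uncertain. C3, at chr17:57203970-57228136, encodes the central protein on which all activation routes converge. It had 38, 11 and 12 reads in controls and 10, 35 and 16 in mutants, or 0.686 ± 0.489 and 0.730 ± 0.408 RPM, below the level set for testing.

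Per length of exon, the order of the 7 genes in controls was C1qa, C1qb, C1qc, Serping1, C1s, C4b and C3. Their control means were 56.5, 46.7 and 43.3 RPM per kilobase for the C1q chains, 37.3 for Serping1, 18.7 for C1s, 0.249 for C4b and 0.134 for C3. The C1q chains and Serping1 overlapped over the controls, for C1qa ranged from 28.3 to 81.9 and Serping1 from 30.7 to 45.7 RPM per kilobase. C1s, at 17.9 to 19.4, lay below all of them in each control. C4b and C3 also overlapped, at 0.153 to 0.403 and 0.0749 to 0.244. C1ra was at 10.2 RPM per kilobase.

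The rest of the system was taken from lists of activation, terminal, regulator and receptor genes, of which 50 symbols are in the table and 27 were tested. C1s is left out of the counts between genotypes that follow, since it was chosen by this contrast. Of the other 26, 1 had an unadjusted p under 0.05, C1ra, which was lower, against 1.05% of all genes in either direction and 0.692% lower, and 0 passed adjustment (limma, Benjamini-Hochberg). C1ra was also the 1 of the 26 whose groups did not overlap, against 2.64% of all genes in either direction, 1.67% with mutants lower and 0.976% with mutants higher. Of the 5 tested among the 7 genes besides C1s, 0 had an unadjusted p under 0.05. Of the 26, 8 had a change below 0 and 18 above, with a median log2 change of 0.08 against -0.013 over all genes.

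Of the 16 listed classical and lectin genes, 11 were tested. Colec12, a membrane collectin, had the most reads, with means of 390 ± 109 RPM for controls and 327 ± 73.7 RPM for mutants. Masp1, a lectin pathway protease that resembles C1s, was at 1.51 ± 0.484 and 0.817 ± 0.512 RPM (log2 change -0.48, SE 0.27, unadjusted p 0.115, limma). Its relative Masp2 was at 3.18 ± 0.751 and 3.48 ± 0.881 RPM. C2, the other substrate of C1s, was at 1.18 ± 0.276 and 1.26 ± 0.527 RPM. The proteases C1s and C1ra thus had more reads than Masp1, Masp2 and C2.

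Of the 11 genes of the alternative and terminal routes, 3 were tested. Cfp, encoding properdin, which stabilises the C3 convertase, averaged 10.9 ± 7.03 RPM over controls and 12.5 ± 7.09 RPM over mutants. Cfb, the protease of the alternative convertase, was at 2.23 ± 0.588 and 2.50 ± 0.874 RPM. C8g, a chain of the lytic complex, was at 1.97 ± 0.656 and 1.54 ± 0.286 RPM, and its annotation overlaps Fbxw5. C7, C9 and Cfd had no read in any library, and Hc, the mouse C5 gene, had 1 read in all. A count of 0 allows up to 0.0987 to 0.126 RPM per library.

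Among the regulators, 9 of 15 were tested. Clu, encoding clusterin, an inhibitor of the lytic complex, was at 305, 378 and 2342 RPM in controls and at 623, 399 and 723 RPM in mutants. Cr1l, a membrane regulator of C3, was the steadiest at 20.3 ± 0.586 and 20.1 ± 1.24 RPM. The membrane regulators Cd55 (20.3 ± 24.1 and 33.9 ± 32.5 RPM) and Cd59a (60.2 ± 24.2 and 63.2 ± 6.28 RPM) overlapped between genotypes. Cfi, the factor I protease, had no read, and Vtn had 7 reads at most in a library.

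Among receptors, 4 of 8 were tested, and the groups overlapped for all 4. C3ar1, the receptor for the C3 fragment C3a, was at 6.01 ± 2.92 and 6.81 ± 3.78 RPM. C5ar1, the C5a receptor, was at 2.80 ± 1.46 and 3.19 ± 1.72 RPM. Itgam and Itgb2, the chains of complement receptor 3 of myeloid cells, were at 5.36 ± 2.91 and 4.44 ± 1.95 RPM and at 3.72 ± 1.54 and 3.94 ± 2.18 RPM. As with C1q, control 3 had the lowest level of C3ar1, C5ar1, Itgam and Itgb2.

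**Figure D3:**
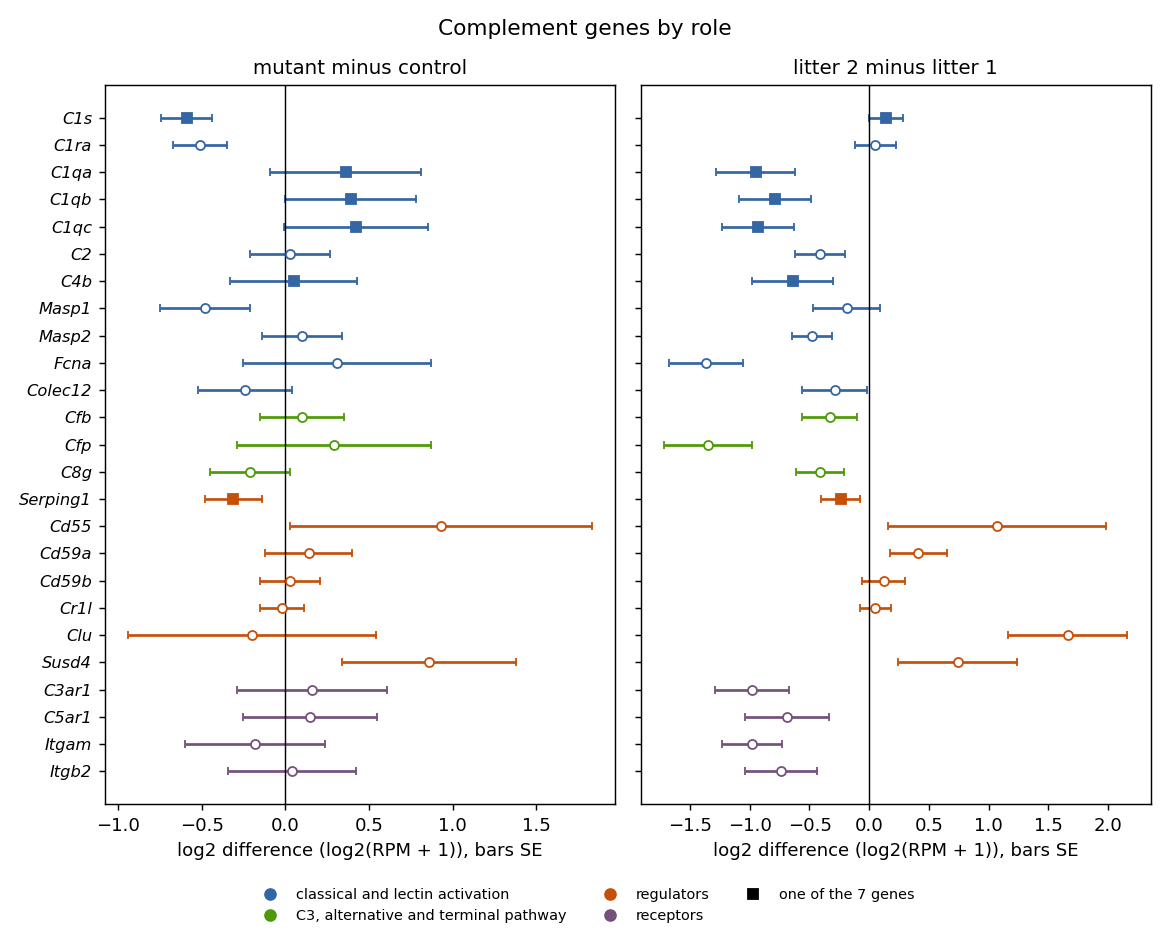
Log2 difference with its SE for 25 complement genes, coloured by role, between genotypes (left) and between litters with genotype in the model (right), with filled squares for those of the 7 genes that were tested. C1s (-0.59) and C1ra (-0.51) lie farthest below 0 on the left and near 0 on the right, where the C1q chains lie between -0.95 and -0.79.

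Litter, which played no part in the choice of C1s, was tested with genotype in the model. C1qa, C1qb and C1qc were lower in litter 2, by log2 differences of -0.95 (SE 0.33), -0.79 (SE 0.30) and -0.93 (SE 0.30). Their unadjusted p-values were 0.0263, 0.0346 and 0.0198, and their adjusted p-values 0.187, 0.208 and 0.170 (limma, Benjamini-Hochberg), so none passed. C1s (0.14, SE 0.14, unadjusted p 0.372) and Serping1 (-0.24, SE 0.16, unadjusted p 0.188) had smaller values, and C4b was at -0.64 (SE 0.34, unadjusted p 0.104); these differences between genes were not tested. For C1qa and C1qc both litter 2 libraries lay below all 4 of litter 1, as for 20.5% of all genes. Thus 3 of the 6 tested had an unadjusted p under 0.05, where 20.9% of all genes did, and 0 passed adjustment, where 0.872% of all genes did. A litter-by-genotype term had an unadjusted p under 0.05 for 0 of the 6, against 5.06% of all genes. Litter 2 holds 2 libraries. Without mutant 2 the count was 0 of 6, where 14.3% of all genes were called, with differences of -0.76 for C1qa, -0.63 for C1qb and -0.80 for C1qc. Without control 3 it was also 0 of 6, where 9.64% of all genes were called, with -0.64, -0.45 and -0.49 in the same order. Without mutant 1 the 3 chains passed adjustment, at adjusted p-values of 0.0482, 0.0454 and 0.0470 (limma, Benjamini-Hochberg), in a fit where 371 genes passed, against 126 with all libraries, and 29.4% had an unadjusted p under 0.05.

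Other complement genes were also lower in litter 2. Of the 27 tested, 12 had an unadjusted p under 0.05 (limma), 11 of them lower in litter 2, against 13.7% of all genes lower. These counts include the C1q chains given above. Fcna, encoding the lectin ficolin A, differed by -1.37 (SE 0.31; -2.19 with a pseudocount of 0.1), Cfp by -1.35 (SE 0.37) and C3ar1 by -0.98 (SE 0.31), while Clu was higher by 1.66 (SE 0.50). Of the 27, 0 passed adjustment (limma, Benjamini-Hochberg). Of the 13 macrophage markers, 12 were lower in litter 2, 8 with an unadjusted p under 0.05. Of 11 tested interferon-response genes, 11 were lower, 8 with an unadjusted p under 0.05, Ifit3 by -1.70 and Gbp2 by -1.46. Of all genes, 53.5% were lower in litter 2 and 20.9% had an unadjusted p under 0.05 (limma). In other lists, an unadjusted p under 0.05 between litters (limma) was found for 5 of 6 erythroid genes (median 1.97). It was also found for 5 of 5 odontoblast markers (median -1.19), of which 3 were lower in litter 2. The enamel epithelium markers (median 1.91) and the dental mesenchyme markers (median -0.23) each had 2 of 10, near the share of all genes. The part of macrophage, blood, odontoblast or enamel epithelium content or of the interferon response in the litter difference of C1q was not tested.

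Among the genes whose levels over the 6 libraries were most like C1s were Col6a3 (Pearson r 0.988), Gm11537 (0.985), Gm16567 (0.985) and Thbs3 (0.981), of 14438 genes compared on log2(RPM + 1). Col6a3, a chain of type VI collagen, was at 212 to 225 RPM in controls and 113, 137 and 150 RPM in mutants. Thbs3, a thrombospondin of the matrix, was at 30.6 to 34.0 RPM in controls and 18.8, 21.2 and 26.0 RPM in mutants. Gm16567 is the antisense gene that shares its exons with C1s. C1ra ranked 14th with r 0.96. Since C1s was chosen for its low mutants, any gene with steady controls and low mutants ranks high here.

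**Figure D4:**
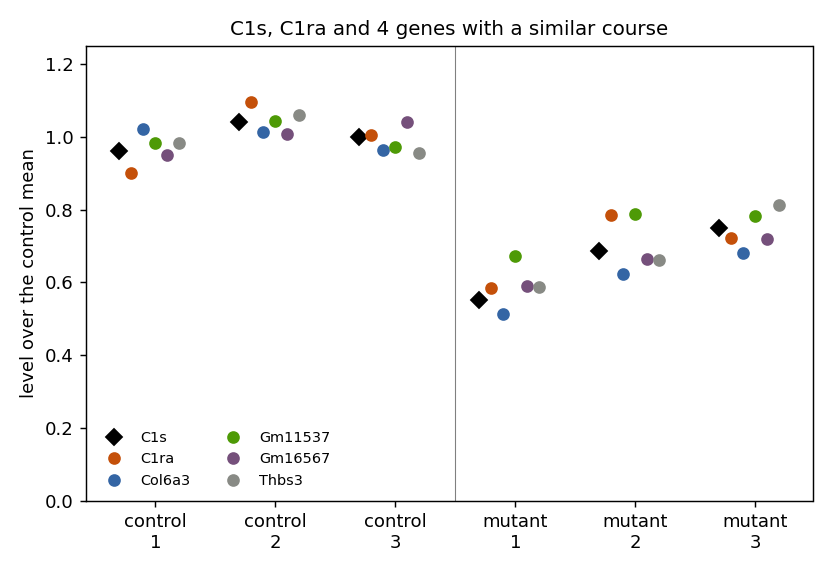
Level of C1s (diamonds), C1ra and 4 genes with a similar course (circles) in each library, divided by each gene's mean over the 3 controls, on a linear axis from 0. All 6 stay near 1 in controls, and mutant 1 is the lowest library for each.

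The mean log2 level of the 3 C1q chains was most like that of Fermt3 (r 0.998), Clec4a3 (0.997), BC013712 (0.997), Rras (0.997) and Tyrobp (0.995). Fermt3, a kindlin of blood cells, ranged from 4.70 RPM in control 3 to 14.8 RPM in mutant 2. Tyrobp, a signalling adaptor of myeloid cells, ranged from 12.8 to 40.7 RPM in the same 2 libraries, and it is one of the macrophage markers above. Csf1r (r 0.97), Emr1, which encodes the macrophage antigen F4/80 (0.99), and Cd68 (0.99) followed the C1q level, while their r with C1s was -0.07, -0.19 and -0.27. These values describe 6 points, each with all its genes from 1 library and its depth, and carry no test. C1s had an r of -0.21 with C1qa, -0.27 with C1qb and -0.28 with C1qc, the products it joins in a single complex, while the C1q genes had an r of 0.97 to 0.99 with one another. Serping1 had an r of 0.68 with C1s and of 0.77 with C1ra.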

How the data were processed

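The values of 1 deposited table were used, covering all 6 libraries; 0 columns of other samples were present. The authors deposited log2 values titled as normalized RPKM; TopHat2 and mm10 are named per the submitters' processing notes, and the counting program, annotation and strand setting are not given in the sources used here. Raised as powers of 2, 100.00% of values above a column's minimum were whole multiples of 1 step per column (within 0.01 of a read, or 0.001% above 1000 reads), and the minimum was 0.9 of a step. They are used as log2 of reads per 1000000 (RPM), without division by gene length, and the minimum as 0 reads.

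The filter required an average of 1 RPM over the libraries. The fit on log2(RPM + 1) used limma 3.58.1 under R 4.3.3 (lmFit, eBayes with trend, two-sided, Benjamini-Hochberg over all genes tested), which was also tested on simulated data. Fold changes on this scale understate low genes. The design assumed RPKM; it was applied to RPM. Ratios within a library used two-sided exact permutation tests in SciPy 1.17.1. Gene positions and exon lengths came from GENCODE M21 (GRCm38), promoters from RefSeq (GRCm38.p6), and C1s was matched to C1s1 by its RefSeq synonym. Figures used matplotlib 3.10.9.

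The 7 genes, the complement and marker lists and the tests were chosen with earlier results of these data known. Named were the 7 genes, a fixed selection of complement genes, any other with an unadjusted p under 0.05, and the 5 genes most like C1s and most like C1q; a few of these are not reported here. Masp2, Fcna, C8g, C9, Ifit3 and Gbp2 were named after their values were seen. Alternatives changed the pseudocount to 0.1 or 0.5, dropped the filter or raised it to 5 RPM, and used 2 other scalings, eBayes without trend or robust, voom on the recovered read counts, litter or replicate number as a block, litter 1 alone, and each library left out. Covariates for the enamel and macrophage markers were added after seeing the data.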

Additional observations from a re-analysis of the deposited data

Results flagged for a closer look

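For 3 of the 27 complement genes tested (11.1%), all regulators, a litter-by-genotype term had an unadjusted p under 0.05 (limma), against 5.06% of all genes. None passed adjustment (limma, Benjamini-Hochberg), and litter 2 has 1 library per genotype.

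Clu was 0.55 higher (log2) in mutants within litter 1 and at -1.69 within litter 2, a difference of -2.25 (SE 0.53, unadjusted p 0.00531, adjusted p 0.669, limma with Benjamini-Hochberg). Control 3, at 2342 RPM, stands above the other 5 libraries, which lie between 305 and 723 RPM.

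Cd55 changed by 2.05 within litter 1 and by -1.31 within litter 2, a difference of -3.36 (SE 1.31, unadjusted p 0.0420, adjusted p 0.91, limma with Benjamini-Hochberg). The controls had 7.50, 5.25 and 48.1 RPM, and the mutants 71.2, 11.6 and 18.8 RPM.

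Cd59a changed by 0.47 within litter 1 and by -0.52 within litter 2, a difference of -0.99 (SE 0.31, unadjusted p 0.0188, adjusted p 0.82, limma with Benjamini-Hochberg). The controls had 41.7, 51.3 and 87.6 RPM, and the mutants 70.4, 58.7 and 60.6 RPM.

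For Clu, Cd55 and Cd59a alike, the 3 highest libraries were mutant 1, control 3 and mutant 3, which are also the 3 with the highest sum of enamel epithelium markers (49434, 39213 and 20557 RPM). The part of those cells in the 3 differences was not tested.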

How the results depend on the processing

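Counts between genotypes that include C1s hold 1 gene chosen by that contrast, so each is followed by the count without it. The number of the 7 genes with an unadjusted p under 0.05, 1 as fitted (0 of 5 without C1s), was 4 (3) with the enamel covariate, where the C1q chains joined at changes of 0.73, 0.70 and 0.76, and 2 (1) with the macrophage covariate, where Serping1 joined at -0.39. It ran from 1 to 2 (0 to 1) with each library left out, and was 2 (1) without control 3. The count over 27 complement genes, 2 (1 of 26), was 4 (3) in litter 1 alone, where 2.21% of all genes were called, 7 (6) with the enamel covariate, at 2.70%, and 5 (4) with the macrophage covariate, at 3.86%, against 1.05% as reported. It ran from 1 to 5 (0 to 4) with each library left out, with 1 (0) without control 2, at 0.831%, and 5 (4) without control 3, at 1.66%. Both covariates were chosen after seeing the data. The count between litters, 3 as reported, ran from 0 to 3 with each library left out; the cause of these shifts was not tested. No complement gene passed adjustment between genotypes in any of these fits.

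C1s ran from -0.68 to -0.47, C1ra from -0.60 to -0.39 and Serping1 from -0.44 to -0.16 over 20 alternatives each. For C1s, chosen because its mutants lay below its controls, the direction is fixed by that choice when a library is left out and is no sign of stability. As each library was left out, C1qa ran from -0.06 to 0.69, C1qc from -0.04 to 0.67 and C4b from -0.27 to 0.39, so that each changed sign (C1qa at -0.06 without control 3 and -0.02 without mutant 2, C1qc at -0.04 without control 3, and C4b at -0.11, -0.03 and -0.27 without control 1, control 3 and mutant 2), and C4b was -0.10 with the macrophage covariate. With the replicate number of the columns as a block, the counts were 1 of 6 (0 of 5) and 3 of 27 (2 of 26), and 524 genes in all, 3.63%, were under 0.05. Same-numbered libraries deviated from their group means with correlations across genes of -0.033, 0.75 and 0.50, so the numbers were not taken to pair the samples. C4b, C3 and C4a are limited by depth, at 80 reads or fewer per library. Over all genes, the litter calls with an adjusted p under 0.05 (limma, Benjamini-Hochberg), 126 as reported, were 0 with median-of-ratios scaling, 1 with upper-quartile scaling and 2 with no filter.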

Other observations

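Other cell type lists varied between libraries. The 7 endothelial markers summed to 323 to 420 RPM in controls and 268 to 389 RPM in mutants, and the 6 erythroid genes to 230 to 2523 and 336 to 774 RPM, highest in control 3. Neutrophil genes were low, with 3 of 9 at a mean of at least 1 RPM, and summed to 3.08 to 6.25 and 4.16 to 13.7 RPM, with Ly6g at 0 in every library. The 7 osteoclast markers summed to 165 to 233 RPM in controls and 123 to 178 RPM in mutants. The 5 odontoblast markers ranged from 479 RPM in mutant 3 to 8214 RPM in mutant 1, and the 7 osteoblast markers from 558 RPM in mutant 3 to 2118 RPM in control 2, with 7 of 7 osteoblast genes below 0 between genotypes (median -0.45) and 2 at an unadjusted p under 0.05 (limma), against 54.4% and 1.05% of all genes. Of the osteoclast markers, 3 were tested and 3 were below 0 (median -0.89), with 0 at an unadjusted p under 0.05. The sums of all these lists overlapped between genotypes.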
